A study of Mus musculus with 6 samples.

Results

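The genes described here are 39 interferon-stimulated genes, taken as the rows of the deposited mouse expression table whose symbol is on a fixed list of genes that interferon is known to induce. They were 39 of the 19162 genes in the table, and all 39 symbols were found. They fall into an ISG15 conjugation system of 2 genes, 4 transcription factors, 5 sensors of foreign nucleic acid, 9 genes of the IFIT and OAS families, 13 other antiviral effectors, 4 guanylate-binding proteins and 2 chemokines. RNA was sequenced in 3 libraries from each of 2 groups. The KCl group was C57BL/6J mouse bone marrow kept for 4 days in medium with 40 ng/mL GM-CSF, a myeloid growth factor, and an extra 34.7 mM KCl. The control group was C57BL/6J bone marrow given the same GM-CSF for the same time without the extra KCl. The study calls these cultures BM-MDSCs, bone marrow cells driven by GM-CSF towards suppressive myeloid cells. The labels do not say whether the numbered replicates 1, 2 and 4 came from separate mice or separate dishes, so p-values may measure technical spread only. Added KCl raises the osmolality of the medium as well as its potassium, and a culture with another added solute was not analysed here.

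Interferons are cytokines that alert cells to infection. Type I interferons bind IFNAR1 and IFNAR2, and the kinases JAK1 and TYK2 then activate a complex with STAT2 and IRF9 that binds the interferon-stimulated response element (ISRE). Interferon gamma binds IFNGR1 and IFNGR2 and acts largely through the gamma-activated site (GAS). Myeloid cells carry both receptors and express many of these genes at a low tonic level without infection.

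The upstream sequence of the guanylate-binding protein genes on the list is shown first. The members that passed the main edgeR test, given below, all belong to that family. Each line is the 250 bases before the transcription start in the RefSeq promoter table of GRCm38.p6, read 5′ to 3′ on the strand of the gene. Capitals mark each match to the ISRE letters on either strand (GAAA, then any 2 bases, then GAAA again) or to the GAS letters TTCNNNGAA, which read the same on both strands. The regions are chr3:142496684-142496933 for Gbp5, chr3:142620413-142620662 for Gbp2, chr3:142559794-142560043 for Gbp3 and chr3:142530086-142530335 for Gbp7, all on the plus strand.
Gbp5: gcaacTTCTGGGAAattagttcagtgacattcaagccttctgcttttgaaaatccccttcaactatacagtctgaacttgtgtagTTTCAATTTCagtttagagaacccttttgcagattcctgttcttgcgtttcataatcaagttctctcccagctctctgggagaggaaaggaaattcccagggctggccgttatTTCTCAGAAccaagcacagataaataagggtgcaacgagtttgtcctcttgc
Gbp2: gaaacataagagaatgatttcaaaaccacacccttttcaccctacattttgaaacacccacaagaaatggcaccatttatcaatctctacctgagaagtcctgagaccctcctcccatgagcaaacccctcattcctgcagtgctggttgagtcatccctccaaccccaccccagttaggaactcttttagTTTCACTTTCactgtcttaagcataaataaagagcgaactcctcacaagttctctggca
Gbp3: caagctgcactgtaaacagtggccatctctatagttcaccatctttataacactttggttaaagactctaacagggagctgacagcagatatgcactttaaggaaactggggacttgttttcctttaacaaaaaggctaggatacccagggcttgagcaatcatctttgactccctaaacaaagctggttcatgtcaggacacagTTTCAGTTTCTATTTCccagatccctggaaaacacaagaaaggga
Gbp7: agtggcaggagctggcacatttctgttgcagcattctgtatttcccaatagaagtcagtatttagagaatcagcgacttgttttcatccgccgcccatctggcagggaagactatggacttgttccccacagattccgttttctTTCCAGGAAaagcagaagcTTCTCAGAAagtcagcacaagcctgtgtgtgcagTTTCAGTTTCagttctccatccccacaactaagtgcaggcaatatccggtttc

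All 4 windows held the ISRE letters. The match began 165 bases before the start in Gbp5, 59 before it in Gbp2 and 53 before it in Gbp7, and Gbp3 had overlapping matches beginning 45 and 39 bases before it. GAS letters stood in the windows of Gbp5, 245 and 52 bases before the start, and of Gbp7, 106 and 87 bases before it. The next lines show the member with the smallest p-value in each of the other role groups, for comparison with the guanylate-binding proteins. Their regions are chr4:156200819-156201068 on the minus strand for Isg15, chr11:53769764-53770013 on the plus strand for Irf1, chr4:40239826-40240075 on the minus strand for Ddx58, chr19:34550444-34550693 on the plus strand for Ifit2, chr12:26468965-26469214 on the plus strand for Cmpk2 and chr5:92348890-92349139 on the minus strand for Cxcl10.
Isg15: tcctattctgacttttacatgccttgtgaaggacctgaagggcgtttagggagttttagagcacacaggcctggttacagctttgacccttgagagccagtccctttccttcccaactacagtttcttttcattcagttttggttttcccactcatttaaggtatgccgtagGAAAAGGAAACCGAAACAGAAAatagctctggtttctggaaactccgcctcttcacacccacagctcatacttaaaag
Irf1: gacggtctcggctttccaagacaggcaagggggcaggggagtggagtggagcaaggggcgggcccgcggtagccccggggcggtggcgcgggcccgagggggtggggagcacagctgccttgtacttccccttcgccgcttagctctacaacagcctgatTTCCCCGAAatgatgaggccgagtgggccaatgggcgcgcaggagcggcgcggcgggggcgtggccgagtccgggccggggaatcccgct
Ddx58: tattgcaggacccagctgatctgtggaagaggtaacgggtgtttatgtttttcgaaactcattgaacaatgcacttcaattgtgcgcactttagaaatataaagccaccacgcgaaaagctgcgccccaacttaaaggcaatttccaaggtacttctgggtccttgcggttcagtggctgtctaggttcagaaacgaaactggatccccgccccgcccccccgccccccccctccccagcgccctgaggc
Ifit2: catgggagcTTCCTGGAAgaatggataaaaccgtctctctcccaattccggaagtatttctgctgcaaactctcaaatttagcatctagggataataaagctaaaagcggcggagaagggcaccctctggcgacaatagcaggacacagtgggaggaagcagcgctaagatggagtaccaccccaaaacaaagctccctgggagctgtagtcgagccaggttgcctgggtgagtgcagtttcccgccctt
Cmpk2: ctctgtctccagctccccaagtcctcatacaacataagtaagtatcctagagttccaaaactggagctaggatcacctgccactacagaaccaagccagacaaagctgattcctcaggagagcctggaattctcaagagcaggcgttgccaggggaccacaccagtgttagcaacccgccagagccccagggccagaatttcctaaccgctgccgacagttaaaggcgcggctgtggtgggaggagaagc
Cxcl10: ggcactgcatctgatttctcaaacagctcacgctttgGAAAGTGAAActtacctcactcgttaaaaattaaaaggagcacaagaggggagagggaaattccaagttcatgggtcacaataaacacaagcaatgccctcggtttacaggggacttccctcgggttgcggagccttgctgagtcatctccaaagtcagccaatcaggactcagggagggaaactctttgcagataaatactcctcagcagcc

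Isg15 held 3 overlapping ISRE matches that began 78, 72 and 66 bases before the start, and Cxcl10 held 1 that began 213 bases before it. Irf1 and Ifit2 held GAS letters 90 and 241 bases before their starts. Neither pattern was in the windows of Ddx58 and Cmpk2. The promoter table matched 30 of the 39 members, and Usp18, Dhx58, Zbp1, Ifi204, Oas2, Mx1, Mx2, Rtp4 and Parp14 were not matched. Each matched member has 1 window, at the listed start nearest the annotated start of its gene. Other listed starts of a member were not counted among the 30. The ISRE letters were in 15 of the 30 windows and in 978 of all 32851 promoter windows of this length (2.98%). Those 32851 windows cover 27025 genes, so some genes have more than 1. The GAS letters were in 8 of the 30 and in 2306 of all windows (7.02%). A match describes the letters only.

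Total counts were 17814232 to 18933948 in the KCl libraries and 14118724 to 21694831 in the control libraries. Mitochondrial genes took 3.26, 3.61 and 3.41% of the counts in KCl replicates 1, 2 and 4 and 4.80, 3.89 and 4.44% in control, lower in every KCl library, and the part of this in the results below was not tested. The labelled cell type was checked with 9 genes of bone marrow myeloid cells, all of which were detected. They were not steady between groups. In the edgeR test described below 5 rose (55.6%, against 12.4% of all tested genes) and 0 fell. Their summed level was 14500, 17800 and 15000 CPM in KCl replicates 1, 2 and 4 and 9550, 11500 and 11300 CPM in control. The part of this in the results below was not tested either. The replicate 4 libraries stood apart from the rest. Over the 8231 genes that averaged 300 counts or more and had no library at 0, the mean of the 2 replicate 4 libraries over the mean of the other 4 had an SD of 0.0095 on the log2 scale. Counting noise alone would give 0.044, and the 14 other ways to take a pair of libraries gave 0.123 to 0.262. The replicate 4 libraries thus balanced each other around the other 4 more tightly than counting noise allows for independent libraries. The SE and p-values given below with n = 3 per group treat these libraries as independent, and may be too small if they are not. Results are therefore also given without the replicate 4 libraries. Of all the members, pathway genes and dendritic cell markers described below, Socs3 alone passed without replicate 4, in a fit with 2 libraries per group.

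All 39 members were listed with counts, and their levels spread over a wide range. Levels between genes are given as CPM (counts scaled to a common library total) per kilobase of merged exons, averaged over the 6 libraries. Bst2, which encodes tetherin, a membrane protein that holds budding virions on the cell, was the highest at 67.9. Ifi35 followed at 25.1, Trim30a at 20.1, Gbp2 at 19.0, Stat2 at 18.9, Mx1 at 17.0 and Oas1a at 16.4. Gbp2 and Stat2 lay closer together than the libraries of Gbp2 did among themselves. From Trim30a to Oas1a, neighbours in this order overlapped between their libraries. Isg15 stood at 6.85, Irf7 at 3.36, Ifit1 and Rsad2 at 1.35 each, Ifi44 at 0.139 and Cxcl9 at 0.00653. Several genes that are steeply induced by interferon were thus present at low levels in both groups.

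**Figure D1:**
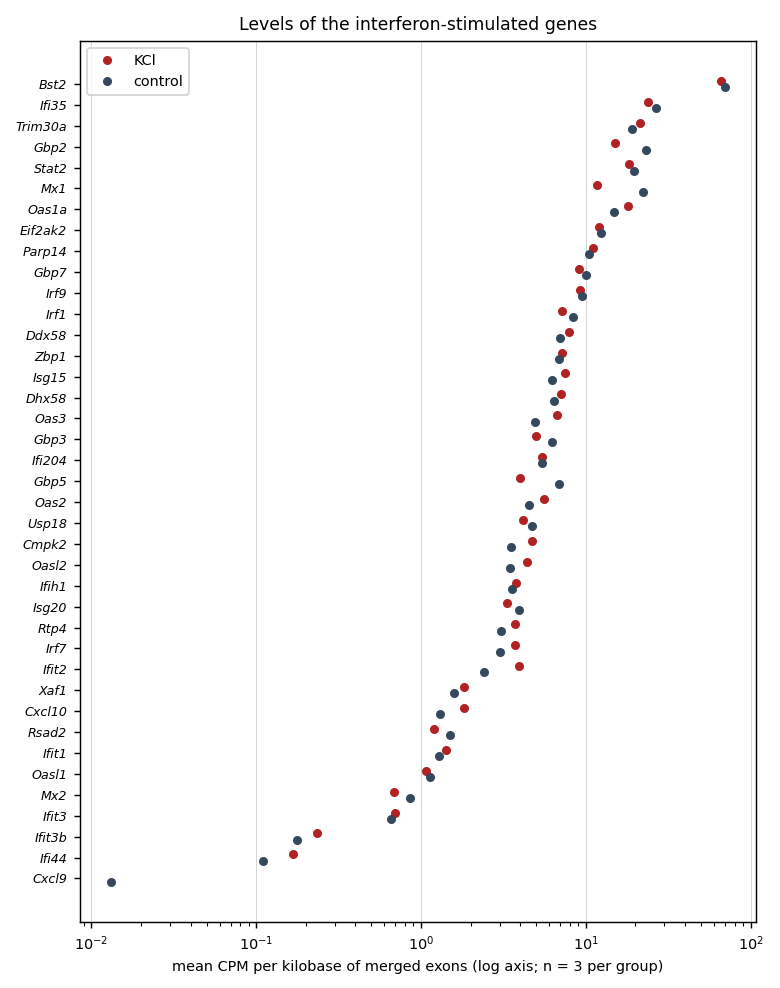
Mean level of each interferon-stimulated gene in the KCl and control groups, as CPM per kilobase of merged exons on a log axis (n = 3 per group; a group mean of 0 is not drawn). Bst2 is highest at 67.9 over all 6 libraries and Cxcl9 lowest at 0.00653, and the points of the groups lie close together for most genes.

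As a whole the members had close levels in both groups. In edgeR's quasi-likelihood test over all genes, with Benjamini-Hochberg adjusted p under 0.05 as the threshold, 0 of the 38 tested members rose, 3 fell and 35 did not pass. The 3 that fell were 7.89% of the tested members. The background over 13326 tested genes was 22.9% called, 12.4% higher in KCl and 10.5% lower. By unadjusted p under 0.05, 7 members were higher and 7 lower in KCl, where all genes gave 17.9% and 16.4%. DESeq2 called 2 members higher and 3 lower, where it called 11.8% and 9.56% of all genes. limma-voom called 1 higher and 2 lower, where it called 12.3% and 10.3% of all genes. Without replicate 4, edgeR called 0 members in either direction and 62 of 13525 genes (0.458%; 0.333% higher in KCl and 0.126% lower). The median log2 fold change of the members, KCl over control, was 0.07, against 0.00 over all tested genes, and single members ran from -0.93 to 0.72. The change was smaller than 0.5 on the log2 scale in 86.8% of the members and in 83.2% of all tested genes. The member that was not tested was Cxcl9, a chemokine that interferon gamma induces, with 0, 0 and 0 counts in KCl and 1, 0 and 1 in control.

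The summed level of the members was 1150, 1100 and 1080 CPM in KCl replicates 1, 2 and 4 and 1160, 1130 and 1180 CPM in control replicates 1, 2 and 4. Every KCl library of 8 members lay above every control library, 21.1% of those tested against 20.2% of all genes. Every KCl library of 5 members lay below every control library, 13.2% against 18.4% of all genes. Both shares were near the background or under it.

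**Figure D2:**
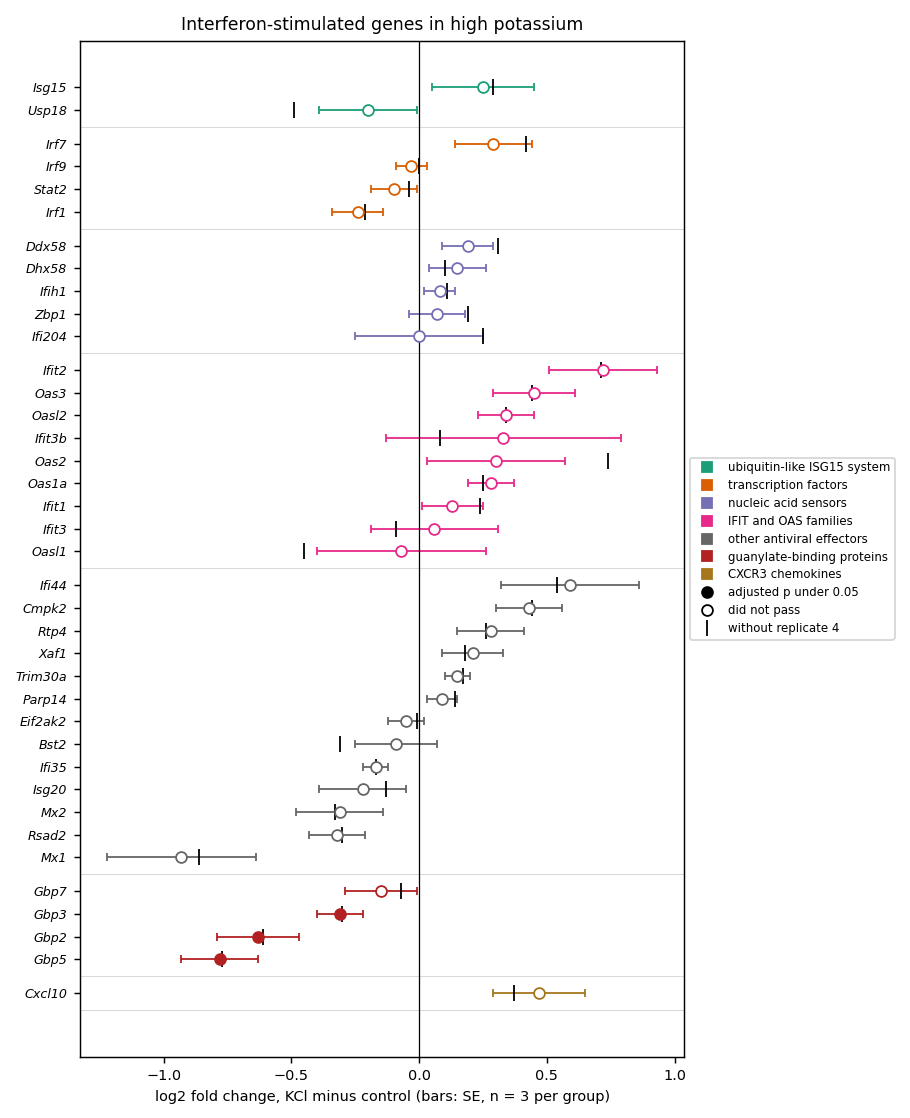
Log2 fold change of each tested interferon-stimulated gene, KCl minus control, grouped by role (bars are SE, n = 3 per group). Filled points are the 3 guanylate-binding protein genes that passed, open points did not pass, and the black tick is the value without replicate 4. Points lie between -0.93 and 0.72.

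All members that passed in the main edgeR fit were guanylate-binding protein genes. They encode large interferon-induced GTPases that coat and break open the vacuoles of intracellular pathogens. Gbp5, Gbp2 and Gbp3 fell, 3 of the 4 members in the family (75%, against 10.5% of all tested genes), and Gbp7 did not pass. Without replicate 4, 0 of the 4 passed. The share describes a small list and was not tested. The 4 genes are neighbours on the plus strand of chromosome 3 in mm10 (GENCODE M21), all annotated as protein coding. Gbp5 lies at 142493978 to 142522344, Gbp7 at 142530342 to 142550149, Gbp3 at 142560026 to 142573209 and Gbp2 at 142620602 to 142638008. Between Gbp3 and Gbp2 lies Gbp2b, at 142594847 to 142619179, which is not a member. It had 6 to 11 counts in each library and was not tested in the main fit.

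Gbp5, which is known to promote assembly of the NLRP3 inflammasome, had 28.3, 24.9 and 26.4 CPM in KCl replicates 1, 2 and 4, against 54.6, 36.3 and 45.6 CPM in control. The groups did not overlap, and control replicate 1 was the highest. Its log2 fold change was -0.78 ± 0.15 (SE, n = 3 each), a ratio of 0.583, with an edgeR adjusted p of 0.0158. Without the replicate 4 libraries the change was -0.77 and the edgeR adjusted p was 0.111. Leaving out KCl replicate 2 gave an edgeR adjusted p of 0.0557, leaving out KCl replicate 4 gave 0.0553, and the call held without each of the other 4 libraries.

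Gbp2, a GTPase that targets bacterial and parasite vacuoles, had 41.3, 34.7 and 36.8 CPM in KCl, against 69.5, 46.2 and 59.0 CPM in control. The groups did not overlap. The log2 fold change was -0.63 ± 0.16 (SE, n = 3 each), with an edgeR adjusted p of 0.0343. The value without replicate 4 was -0.61, and its edgeR adjusted p was 0.156. Leaving out 1 library at a time, the edgeR adjusted p ran from 0.015 to 0.104 and passed only without control replicate 2.

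Gbp3 had 17.1, 15.8 and 16 CPM in KCl, against 22.0, 18.4 and 20.5 CPM in control. The groups did not overlap, and the lowest control library was close to the highest KCl library. The log2 fold change was -0.31 ± 0.09 (SE, n = 3 each), a ratio of 0.804, with an edgeR adjusted p of 0.0486, next to the threshold. Without replicate 4 it was -0.30 with an edgeR adjusted p of 0.219. With 1 library left out the edgeR adjusted p ran from 0.0282 to 0.153 and passed only without control replicate 2. DESeq2 gave 0.0703 and limma-voom 0.0565. Gbp3 shared 3.75% of its 50-base stretches with Gbp7, so few of its reads could have been assigned to either gene.

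Gbp7 had 54.7, 50.3 and 47.4 CPM in KCl and 45.5, 64.3 and 59.4 CPM in control. The groups overlapped, because control replicate 1 was the lowest of all 6 libraries. Its log2 fold change was -0.15 ± 0.14 (SE, n = 3 each), with an edgeR adjusted p of 0.549. Of its exon bases, 11.3% are also annotated to Gm43802 on the same strand, so its counts may be shared with that gene. The summed level of the 4 genes was 141, 126 and 127 CPM in KCl and 192, 165 and 184 CPM in control.

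**Figure D3:**
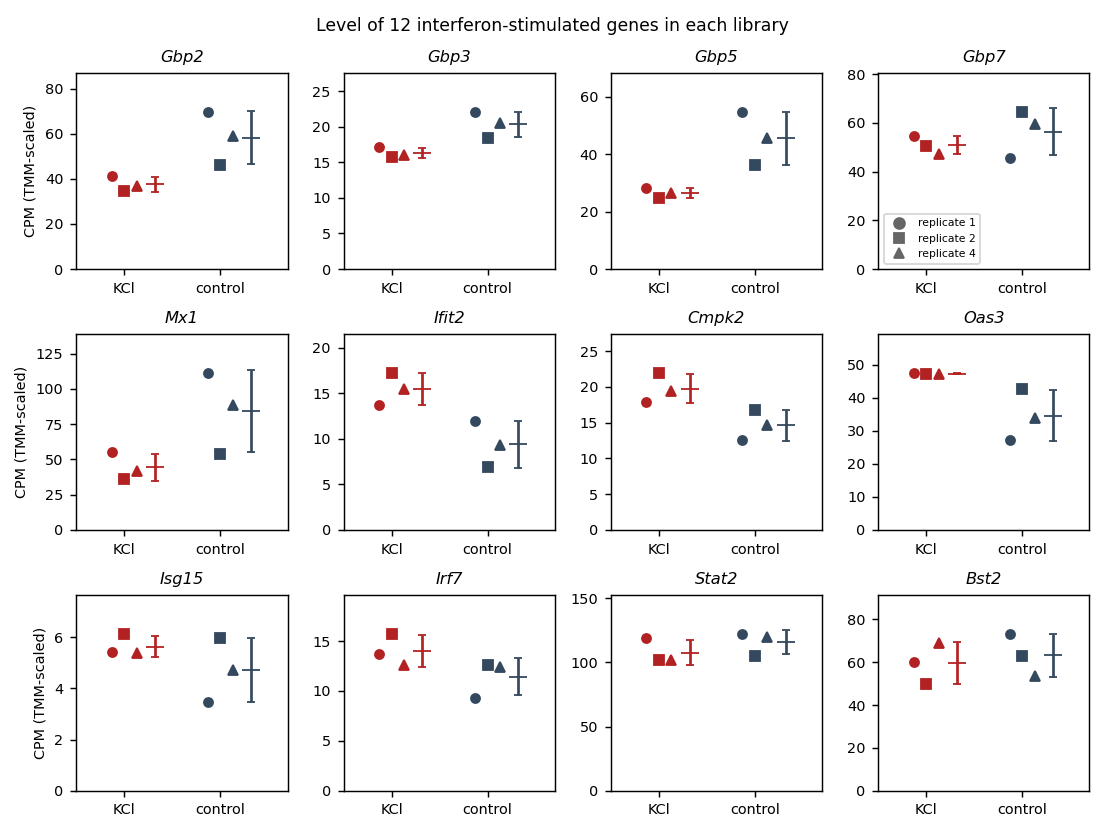
CPM of selected interferon-stimulated genes in each library, KCl left and control right, with the mean and SD beside the points (n = 3 per group) and each axis starting at 0. Gbp2, Gbp3 and Gbp5 lie lower in every KCl library than in any control library, whereas Mx1 overlaps between groups and Oas3 has almost the same value in the 3 KCl libraries.

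Markers of dendritic cells and of eosinophils moved with these 3 genes. Of the 13 dendritic cell markers tested, 0 rose and 6 fell (46.2%, against 10.5% of all tested genes), with a median log2 fold change of -0.70. Every KCl library lay below every control library for 9 of the 13 (69.2%, against 18.4% of all tested genes). Without replicate 4, 0 of them passed. Their summed level was 2910, 2250 and 2520 CPM in KCl and 4380, 3430 and 4000 CPM in control. Itgax, which encodes CD11c, fell to 281, 269 and 285 CPM in KCl, against 436, 475 and 448 CPM in control, with a log2 change of -0.70 ± 0.05 (SE) and an edgeR adjusted p of 0.00234. Zbtb46, a transcription factor of conventional dendritic cells, had 23.5, 11.5 and 16.4 CPM in KCl and 46.5, 26.7 and 39.2 CPM in control, and its edgeR adjusted p was 0.0443. The costimulatory gene Cd80 fell by 0.78 on the log2 scale, with an edgeR adjusted p of 0.0107. Ccr7, the lymph node homing receptor of mature dendritic cells, had 269, 193 and 216 CPM in KCl and 563, 275 and 444 CPM in control, and did not pass (edgeR adjusted p 0.0556).

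Of the 8 eosinophil markers, 0 rose and 5 fell (62.5%, against 10.5% of all tested genes), with a median log2 fold change of -1.10. Of these markers 4 still fell without replicate 4, where 0.126% of all tested genes were called lower. Their summed level was 1120, 962 and 1090 CPM in KCl and 2580, 2350 and 2360 CPM in control.

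The medians of these lists were also compared library by library. Each gene was centred on its mean over the 6 libraries, and the median over a list was taken. For the dendritic cell markers this was -0.06, -0.54 and -0.38 in KCl replicates 1, 2 and 4 and 0.51, 0.06 and 0.41 in control replicates 1, 2 and 4. For the 4 guanylate-binding proteins it was -0.13, -0.31 and -0.26 in KCl and 0.43, 0.04 and 0.26 in control. For the eosinophil markers it was -0.45, -0.71 and -0.50 in KCl and 0.64, 0.50 and 0.51 in control. Replicate 1 was the highest library and replicate 2 the lowest in each group on all of these medians. For the eosinophil markers the medians of control replicates 2 and 4, 0.50 and 0.51, were almost equal. Over all tested genes replicate 4 was the highest KCl library in 23.5% and the highest control library in 27%. The share of all tested genes with the order of these medians in both groups was not counted. Single genes departed from this order: control replicate 1 was the lowest control for Gbp7, and control replicate 2 was the highest control for Itgax. The part of either set of markers in the fall of the guanylate-binding proteins was not tested. In bulk RNA, fewer cells of a type and less RNA per cell cannot be told apart.

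**Figure D4:**
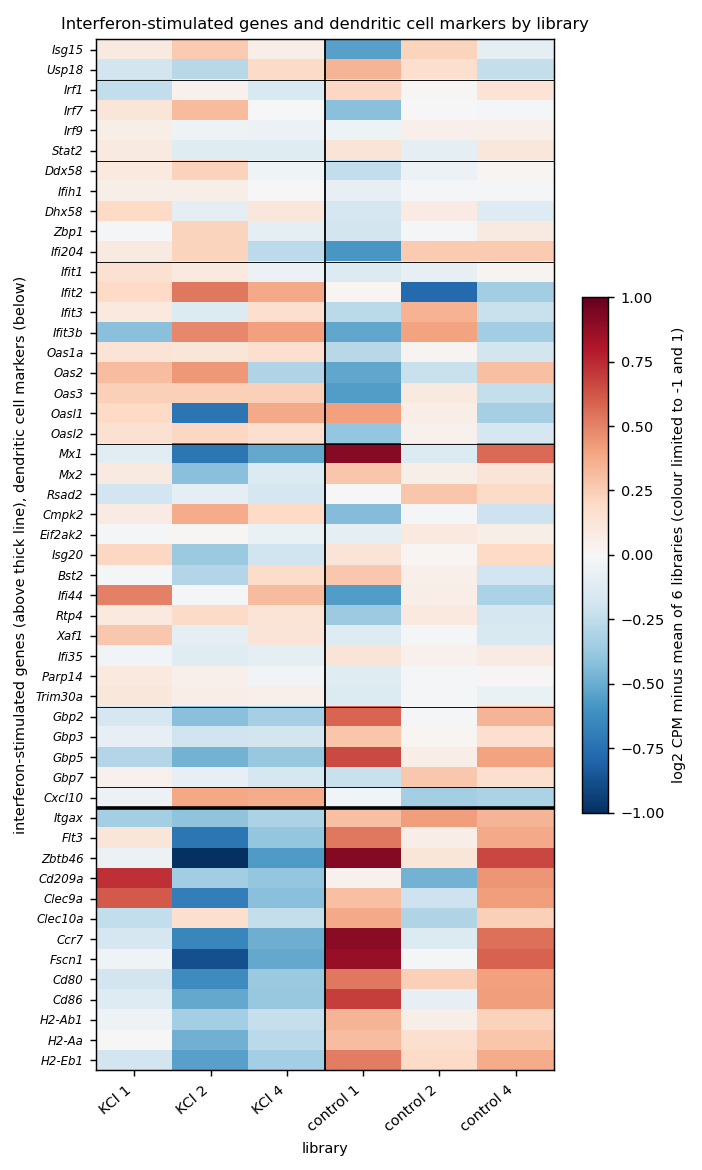
Heat map of log2 CPM minus the mean of the 6 libraries for each tested interferon-stimulated gene (above the thick line, grouped by role) and each dendritic cell marker (below it), with KCl libraries left of control libraries and colours limited to -1 and 1. Gbp2, Gbp3, Gbp5 and Mx1 are blue in KCl and red in control replicate 1, as are Zbtb46, Ccr7 and Fscn1, while other dendritic cell markers differ: Cd209a and Clec9a are red in KCl replicate 1 (0.73 and 0.61), Clec10a is red in KCl replicate 2 (0.17) and Itgax is highest in control replicate 2 (0.42).

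Mx1 had the lowest fold change of all members and did not pass. It encodes a dynamin-like GTPase that blocks influenza virus polymerase in the nucleus. Many laboratory mouse strains carry a defective allele, so counts of Mx1 RNA do not show that working protein is made. Mx1 had 55.1, 35.9 and 41.8 CPM in KCl and 111, 53.7 and 88.2 CPM in control. KCl replicate 1 lay just above control replicate 2, so the groups overlapped. The log2 fold change was -0.93 ± 0.29 (SE, n = 3 each), with an edgeR adjusted p of 0.0678. DESeq2 gave an adjusted p of 0.00358, limma-voom 0.0914, and edgeR without replicate 4 gave 0.222. Its libraries kept the order of the dendritic cell list median, with replicate 1 highest and replicate 2 lowest in each group. Replicate 1 was also the highest KCl library in 34.8% and the highest control library in 38.4% of all tested genes. The part of dendritic cells in the values of Mx1 was not tested. Mx2, annotated in mm10 as a polymorphic pseudogene, had 2.94, 2.04 and 2.49 CPM in KCl and 3.38, 2.88 and 3.04 CPM in control (log2 fold change -0.31 ± 0.17, edgeR adjusted p 0.276).

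Of the 9 members in the IFIT and OAS families, 0 passed. IFIT proteins bind viral RNA that lacks the host cap methylation, and OAS enzymes sense double-stranded RNA and activate RNase L. Their median log2 fold change was 0.30, with a range of -0.07 to 0.72, and 8 of 9 were positive (88.9%, against 49.4% of all tested genes). Every KCl library lay above every control library for Ifit2, Oas1a, Oas3 and Oasl2, 4 of 9 (44.4%), against 20.2% of all tested genes. These shares are a description of a small list and were not tested. Their summed level was 158, 163 and 152 CPM in KCl and 107, 133 and 126 CPM in control.

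Ifit2 had the highest fold change of all members. It had 13.7, 17.2 and 15.5 CPM in KCl and 12, 6.87 and 9.32 CPM in control, without overlap. The log2 fold change was 0.72 ± 0.21 (SE, n = 3 each), with an edgeR adjusted p of 0.0557. DESeq2 gave 0.0126 and limma-voom 0.0496, so that its call depended on the tool, and edgeR without replicate 4 gave 0.195. Ifit1, in the same cluster on chromosome 19, had 3.99, 3.85 and 3.43 CPM in KCl and 3.24, 3.39 and 3.67 CPM in control (0.13 ± 0.12), with overlap. Ifit3 (log2 fold change 0.06 ± 0.25) and Ifit3b (0.33 ± 0.46) were under 2 CPM in all libraries, and 51.2% of the 50-base stretches of Ifit3 also occur in another gene, chiefly Ifit3b, so their counts are uncertain.

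Oas3 had 47.4, 47.2 and 47.3 CPM in KCl and 27.2, 42.5 and 33.9 CPM in control. The KCl libraries were almost equal and the control libraries spread widely. The log2 fold change was 0.45 ± 0.16 (SE, n = 3 each), the edgeR adjusted p was 0.09, and DESeq2 gave 0.0467. Oas1a had 34.0, 33.4 and 34.7 CPM in KCl and 25.3, 31.4 and 27.2 CPM in control (log2 fold change 0.28 ± 0.09, edgeR adjusted p 0.0714). It shares 57.6% of its 50-base stretches with other genes, chiefly Oas1g, so this value may belong in part to its paralog. Oasl2, an OAS-like protein, had 27.4, 28.7 and 27.6 CPM in KCl and 18.9, 25.4 and 22.0 CPM in control (0.34 ± 0.11, edgeR adjusted p 0.0842). In each of Oas1a, Oas3 and Oasl2 control replicate 1 was the lowest library and control replicate 2 the highest control.

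Oas2 had 27.1, 29.3 and 17.7 CPM in KCl and 15.1, 18.6 and 26.9 CPM in control. Within each group replicate 4 was the odd library, low in KCl and high in control. Over all tested genes the replicate 4 libraries deviated from their group means in opposite directions (correlation -0.75). A mirrored pattern in replicate 4 is therefore not particular to Oas2 or to the neutrophil genes given below. The log2 fold change was 0.30 ± 0.27 with all libraries and 0.74 ± 0.14 without replicate 4, where the edgeR adjusted p was 0.0774. Cxcr2, a neutrophil chemokine receptor, had its libraries in the order of Oas2. It had 134, 206 and 68.9 CPM in KCl and 51.8, 78.7 and 158 CPM in control. Not all neutrophil markers had that order. KCl replicate 2 was the highest KCl library in 100% of the 11 markers, against 41.7% of all tested genes. Control replicate 4 was the highest control library in 7 of them (63.6%, against 27% of all tested genes). For 3 it was control replicate 2 and for 1 control replicate 1. Of the 11 neutrophil markers 3 rose (27.3%, against 12.4% of all tested genes) and 0 fell. Their median centred log2 CPM was 0.13, 0.59 and -0.23 in KCl and -0.61, -0.22 and 0.22 in control. Their part in the values of Oas2 was not tested. Oasl1, a brake on Irf7 translation in mice, had 3.20, 1.63 and 3.65 CPM in KCl and 3.71, 2.93 and 2.19 CPM in control, with overlap.

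Of the 13 other antiviral effectors 0 passed in either direction, with a median log2 fold change of -0.05. The groups did not overlap for 5 of them, a share equal to the 38.5% of all tested genes. Cmpk2, a mitochondrial nucleotide kinase encoded beside Rsad2, had 17.9, 21.9 and 19.4 CPM in KCl and 12.5, 16.8 and 14.6 CPM in control. Its log2 fold change was 0.43 ± 0.13 (SE, n = 3 each), with an edgeR adjusted p of 0.0669. Rsad2, which encodes viperin, an enzyme that makes a chain-terminating nucleotide, had 5.09, 5.42 and 5.15 CPM in KCl and 5.81, 7.10 and 6.64 CPM in control. Its log2 fold change was -0.32 ± 0.11 (SE, n = 3 each), with an edgeR adjusted p of 0.0878. These neighbouring genes therefore had values of opposite sign, neither of which passed.

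Trim30a, a negative regulator of Toll-like receptor signalling, had 88.9, 86.9 and 85.5 CPM in KCl and 74.8, 81.7 and 78.5 CPM in control, a log2 fold change of 0.15 ± 0.05 with an edgeR adjusted p of 0.091. Ifi35 had 42.3, 39.7 and 40.6 CPM in KCl and 47.2, 44.6 and 45.6 CPM in control, a log2 fold change of -0.17 ± 0.05 with an edgeR adjusted p of 0.0775. Of the exon bases of Ifi35, 16.8% overlap the antisense gene Gm11626, and the strand setting of the counting is not given in the sources used here. Rtp4, a chaperone that carries receptors to the cell surface, had 7.72, 8.22 and 7.91 CPM in KCl and 5.57, 7.69 and 6.35 CPM in control (log2 fold change 0.28 ± 0.13, edgeR adjusted p 0.208). Bst2 had 60.2, 49.6 and 68.9 CPM in KCl and 73.1, 62.9 and 53.4 CPM in control, which overlapped widely (log2 fold change -0.09 ± 0.16). The remaining effectors overlapped between groups. Eif2ak2, the kinase PKR that stops translation on double-stranded RNA, had a log2 fold change of -0.05 ± 0.07, the poly-ADP-ribosyl transferase gene Parp14 0.09 ± 0.06, the exonuclease gene Isg20 -0.22 ± 0.17, the apoptosis gene Xaf1 0.21 ± 0.12 and Ifi44, a gene at about 1 CPM, 0.59 ± 0.27.

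The 4 transcription factors on the list did not pass. Irf7, the factor that amplifies type I interferon production, had 13.7, 15.7 and 12.6 CPM in KCl and 9.33, 12.6 and 12.4 CPM in control (log2 fold change 0.29 ± 0.15, edgeR adjusted p 0.231). Irf1, a main factor of the interferon gamma response, had 25.8, 31.5 and 27.7 CPM in KCl and 35.5, 30.9 and 33.9 CPM in control (-0.24 ± 0.10, edgeR adjusted p 0.138). Stat2 had 119, 102 and 102 CPM in KCl and 122, 105 and 120 CPM in control. Irf9 had 52.5, 48.9 and 48.3 CPM in KCl and 48.8, 52.2 and 52.2 CPM in control. Stat2 and Irf9 differed by -0.10 ± 0.09 and -0.03 ± 0.06 on the log2 scale.

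The 5 sensors likewise did not pass, and their log2 fold changes lay between 0.00 and 0.19. Ddx58, which encodes the RNA sensor RIG-I, had 56.0, 61.4 and 50.9 CPM in KCl and 44.2, 50.2 and 53.3 CPM in control (0.19 ± 0.10, edgeR adjusted p 0.254). Ifih1, which encodes the long double-stranded RNA sensor MDA5, had 31.3, 31.4 and 30.1 CPM in KCl and 28.4, 29.7 and 29.7 CPM in control. Its groups did not overlap, yet the log2 fold change was 0.08 ± 0.06 with an edgeR adjusted p of 0.4. Dhx58, a regulator of these sensors, differed by 0.15 ± 0.11 on the log2 scale and Zbp1, a sensor of Z-form nucleic acid, by 0.07 ± 0.11. Ifi204, a DNA sensor that shares 20% of its 50-base stretches with other genes, chiefly Ifi211, had 20.3, 22.2 and 15.9 CPM in KCl and 12.7, 22.8 and 22.8 CPM in control (0.00 ± 0.25).

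Isg15, the ubiquitin-like modifier, had 5.41, 6.12 and 5.37 CPM in KCl and 3.48, 5.95 and 4.73 CPM in control (log2 fold change 0.25 ± 0.20, edgeR adjusted p 0.498). Usp18, the protease that removes ISG15 and also damps the type I receptor, had 10.7, 10 and 13.9 CPM in KCl and 15.5, 13.7 and 10.3 CPM in control (-0.20 ± 0.19, edgeR adjusted p 0.579). Both overlapped between groups. Cxcl10, a chemokine that draws activated T cells through CXCR3, had 3.31, 4.55 and 4.48 CPM in KCl and 3.38, 2.70 and 2.75 CPM in control. KCl replicate 1 lay just under control replicate 1, and the log2 fold change of 0.47 ± 0.18 did not pass (edgeR adjusted p 0.112).

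The rest of the pathway was read from fixed lists. Of the 11 receptor and JAK-STAT genes, 0 passed in either direction and the median log2 fold change was 0.03. Ifnar1 (-0.07 ± 0.10), Ifnar2 (0.11 ± 0.06), Ifngr1 (0.00 ± 0.07) and Ifngr2 (0.11 ± 0.06) differed by no more than 0.11 on the log2 scale. Jak1, a kinase of both kinds of interferon receptor, had 381, 405 and 362 CPM in KCl and 330, 348 and 360 CPM in control (0.15 ± 0.06, edgeR adjusted p 0.159), without overlap. Jak2, the kinase of the interferon gamma and GM-CSF receptors, had 531, 470 and 454 CPM in KCl and 827, 468 and 698 CPM in control (-0.45 ± 0.20, edgeR adjusted p 0.179), again with control replicate 1 highest. Of the 21 interferon ligand genes listed, 2 were in the table, Ifnab and Ifnz. Each had at most 3 counts in a library and was not tested. Ifnb1 and Ifng were not analysed here.

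Among 18 tested genes of nucleic acid sensing upstream of interferon, 2 rose and 0 fell, and 0 passed without replicate 4. The share that rose, 11.1%, was near the 12.4% of all genes. Tlr8, an endosomal RNA receptor, had 26.3, 26.6 and 24.8 CPM in KCl and 16.8, 19.0 and 18.5 CPM in control (0.51 ± 0.07, edgeR adjusted p 0.00652, and 0.0811 without replicate 4). Unc93b1, which carries these receptors to endosomes, had 392, 340 and 357 CPM in KCl and 277, 305 and 294 CPM in control. Its log2 fold change was 0.31 ± 0.07 with an edgeR adjusted p of 0.0239, and it passed in only 2 of the 6 fits that leave out 1 library, those without KCl replicate 2 or control replicate 2. The kinase gene Tbk1 (0.20 ± 0.06, edgeR adjusted p 0.0614) and Tmem173, which encodes STING (0.15 ± 0.05, edgeR adjusted p 0.0918), did not pass.

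Of 14 listed negative regulators, 2 rose and 2 fell, and 1 passed without replicate 4. The share was 14.3% in each direction, near the 12.4% and 10.5% of all genes. Socs3 rose most, to 149, 150 and 140 CPM in KCl, against 58.3, 70.6 and 71.5 CPM in control. It encodes a feedback inhibitor best known for restraining the gp130 and G-CSF receptors rather than the interferon receptors. Its log2 fold change was 1.13 ± 0.09 (SE, n = 3 each) with an edgeR adjusted p of 0.00234, and the call held without replicate 4 (edgeR adjusted p 0.0438) and without each library in turn. Nlrc5, better known as the transactivator of MHC class I genes, had 42.2, 44.0 and 41.5 CPM in KCl and 37.9, 35.3 and 37.1 CPM in control (0.21 ± 0.06, edgeR adjusted p 0.0401), a call lost when any single library was left out (edgeR adjusted p 0.0676 to 0.139). Trim24, a chromatin reader that represses retinoic acid receptor targets, had 27.7, 23.4 and 24.8 CPM in KCl and 38.3, 29.7 and 34.7 CPM in control (edgeR adjusted p 0.0418). Ptpn2, a phosphatase of JAK and STAT proteins, had 56.3, 63.3 and 58.6 CPM in KCl and 75.4, 66.8 and 71.5 CPM in control (edgeR adjusted p 0.045). Trim24 passed in 1 of the 6 fits that leave out 1 library, the fit without control replicate 2, and Ptpn2 in 2, those without KCl replicate 2 or control replicate 2.

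A further 67 interferon-stimulated genes outside the 39 were tested. Of these, 7 rose and 7 fell, 10.4% in each direction, where all tested genes gave 12.4% and 10.5%, and the median log2 fold change was 0.11. The genes that rose were Ly6a, Irgm1, Gbp6, Znfx1, Parp12, Parp10 and Ifi203. The genes that fell were Ifi27l2a, Helz2, Epsti1, Gbp8, Tgtp1, Phf11b and Ifi27. Ly6a, which encodes the stem cell antigen Sca-1, had 19.3, 16.4 and 16.9 CPM in KCl and 8.29, 10.1 and 9.81 CPM in control (0.90 ± 0.11, edgeR adjusted p 0.00484). Ifi27l2a had 9.40, 8.57 and 9.18 CPM in KCl and 15.2, 14.2 and 14.3 CPM in control (-0.69 ± 0.07, edgeR adjusted p 0.00375). Irgm1, an immunity-related GTPase that regulates autophagy, rose by 0.41 ± 0.07 (edgeR adjusted p 0.0118) and Helz2, a nuclear receptor coactivator, fell by 0.41 ± 0.07 on the log2 scale (edgeR adjusted p 0.0112). These 4 calls held with each library left out in turn. All 14 were lost without replicate 4 of both groups, where the edgeR adjusted p values were 0.0708 for Ly6a, 0.0754 for Ifi27l2a, 0.1 for Irgm1 and 0.103 for Helz2.

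Other guanylate-binding protein genes, in a cluster on chromosome 5, were examined after the values of the 4 members had been seen. Of those described here Gbp4, Gbp8 and Gbp9 had negative log2 fold changes. Gbp6 alone had a positive one, and the source of its reads is uncertain, as given below. Gbp8 fell to 4.36, 1.98 and 2.93 CPM in KCl, against 10.4, 5.17 and 8.26 CPM in control (-1.35 ± 0.36, edgeR adjusted p 0.0417). It passed in 2 of the 6 fits with 1 library left out, those without KCl replicate 1 or control replicate 2. DESeq2 gave it an adjusted p of 0.00251 and limma-voom 0.0563, so its call depended on the tool. Of the 50-base stretches of Gbp8, 18.1% also occur in other genes, most of all Gbp11 (7.37%). Gbp6 had 3.05, 6.47 and 4.59 CPM in KCl and 0.952, 1.6 and 1.41 CPM in control (1.83 ± 0.34, edgeR adjusted p 0.0135, and 0.104 without replicate 4). Of the 50-base stretches of Gbp6, 70.7% also occur in other annotated genes, chiefly Gm43302, so the gene that gave these reads is uncertain. A second deposited entry also carries the symbol Gbp6 and its values are not given here. Of its stretches 100% occur in other genes, and 93% in the entry described. Gbp9 had 7.72, 6.41 and 6.92 CPM in KCl and 10, 8.33 and 9.39 CPM in control (-0.39 ± 0.11, edgeR adjusted p 0.0521), and Gbp4 a log2 fold change of -0.41 ± 0.32 (edgeR adjusted p 0.483). Neither passed.

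Plasmacytoid dendritic cells, which make large amounts of type I interferon, were followed by 11 markers. Of the 10 tested, 1 rose and 2 fell, 10% and 20%, against 12.4% and 10.5% of all tested genes. The summed level of the 11 markers was 155, 153 and 135 CPM in KCl and 154, 150 and 169 CPM in control. Siglech, a defining marker of these cells, had 2.57, 1.81 and 2.27 CPM in KCl and 2.00, 1.14 and 1.41 CPM in control and did not pass (edgeR adjusted p 0.202). Ccr9, a gut homing receptor, rose to 4.46, 4.31 and 4.15 CPM in KCl, against 1.38, 0.595 and 1.13 CPM in control (edgeR adjusted p 0.00585). The transcription factor gene Spib fell to 12.8, 7.29 and 9.52 CPM in KCl, against 27.0, 15.2 and 21.6 CPM in control (edgeR adjusted p 0.0352). Pacsin1 fell to 3.62, 3.91 and 3.93 CPM in KCl, against 8.81, 6.32 and 7.48 CPM in control (edgeR adjusted p 0.00756). Without replicate 4, 0 of these markers passed. Of the 10 monocyte markers 5 rose (50%) and 0 fell, and of the 10 macrophage markers 3 rose (30%) and 1 fell (10%). All tested genes gave 12.4% higher and 10.5% lower. The part of these cell types in the values of the members was not tested.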

How the data were processed

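Trizol RNA with a RIN above 7 was made into Illumina libraries, per the labels' protocols. HISAT2 2.0.4, StringTie 1.3.3b and edgeR, and the genome build mm10, are named in the submitters' processing notes, and the strand setting is not given in the sources used here. The authors deposited read counts and FPKM per gene for the 6 libraries in one table. The counts were tested with edgeR 4.0.16 (R 4.3.3): TMM scaling, filterByExpr with a minimum count of 10 and a total of 15, a robust quasi-likelihood fit of KCl against control, and Benjamini-Hochberg adjustment over all 13326 genes tested. CPM values are TMM-scaled, and their SD covers the spread of 3 libraries per group. The SE of a log2 fold change is its absolute value over the square root of the edgeR F statistic. It therefore rests on a dispersion moderated across genes, not on the spread of that gene alone. The deposited FPKM values were not used for levels between genes, because the gene length they imply was over 5% above the merged exons for 7318 of 10686 genes and above the whole gene span for 964, so CPM per kilobase of merged exons (GENCODE M21) was used. Alternatives were DESeq2 1.42.0, limma-voom (limma 3.58.1), other scalings and filters, a replicate block, a batch term and left-out libraries. The procedure was tested on simulated data. The 39 genes and all lists were chosen with earlier results of these data known. All 39 genes are accounted for, with values per library for those that passed or did not overlap. From each pathway list up to 4 genes with the smallest p were named, plus the interferon receptors, and promoters were shown for the smallest p in each role group. The promoters of Gbp2, Gbp3 and Gbp7, the other genes of the further list named by their call, the chromosome 5 family and the cell markers named were chosen after their values were seen. A further gene of that rule is not reported here.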

Additional observations from a re-analysis of the deposited data

How the results depend on the processing

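The fall of Gbp5 passed in edgeR, DESeq2 (adjusted p 6.14e-05) and limma-voom and under every scaling and filter tried, and that of Gbp2 likewise, whereas Gbp3 was lost without the filter (edgeR adjusted p 0.0537), with genes under a mean of 5 CPM dropped, in DESeq2 and in limma-voom. The median log2 fold change of the members tested (31 with the 5 CPM filter, 39 without a filter and 38 otherwise) stayed between 0.027 and 0.124 in all 16 alternatives. The members called higher, 0 in the main result, were 2 in DESeq2 (Ifit2 and Oas3) and 1 in limma-voom (Ifit2). DESeq2 called Gbp2, Gbp5 and Mx1 lower. With 1 library left out the members called higher ran from 0 to 5 and those called lower from 0 to 4. Both were highest without control replicate 2, where Cmpk2, Oas1a, Oas3, Oasl2 and Rtp4 were higher and Gbp2, Gbp3, Gbp5 and Mx1 lower. The calls over all genes were then 1439 without control replicate 4 and 1505 without KCl replicate 4. Without 1 of the other libraries they ran from 2246 without control replicate 1 to 2851 without control replicate 2, against 3057. Without replicate 4 of both groups 62 genes were called (0.458%), with 0 members lower, and the log2 fold changes of Gbp2, Gbp3 and Gbp5 kept their size. That fit has 2 libraries per group. With replicate 4 as a batch term 1573 genes were called, and 1 member, Gbp5, was lower. Upper-quartile scaling gave 1422 genes higher and 1735 lower, against 1655 and 1402, and added Ifi35 to the members lower, with a median shift of -0.05 over all genes.

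With the replicate block 1678 genes were called, with 1 member higher (Cmpk2) and 3 lower (Gbp2, Gbp5 and Mx1). The correlation of same-numbered libraries was 0.02 for replicate 1, -0.06 for replicate 2 and -0.75 for replicate 4, so the numbers do not pair the samples as a block would. The replicate 4 libraries deviated from their group means in opposite directions.

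Changes of sign were seen for genes near 0, none of which passed. Without replicate 4 of both groups Irf9 was 0.005, Ifit3 -0.093, Ifnar1 0.025 and Ifngr1 -0.067. Ifi204 was -0.001 with RLE scaling, -0.044 with upper-quartile scaling, -0.019 with library size alone, -0.019 without a filter and -0.004 in DESeq2. Ifngr1 was -0.042 with upper-quartile scaling, -0.017 with library size alone and -0.018 without a filter. With 1 library left out, Zbp1 ran from -0.034 to 0.132, Ifi204 from -0.242 to 0.142, Ifit3 from -0.077 to 0.322, Oasl1 from -0.29 to 0.202, Bst2 from -0.203 to 0.029 and Ifngr1 from -0.037 to 0.053. The cause was not tested for any of these changes.

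Depth limits the genes under about 5 CPM, such as Ifit3, Ifit3b, Ifi44 and Cxcl9. The spread between 3 libraries of a group, wide in control for Mx1, Gbp5 and Oas3, sets the precision of the rest, and groups of 3 were not examined for single outlying libraries.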
